A study of Homo sapiens with 8 samples.

Results

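The miRNAs described here are the 7 entries of the deposited table whose hairpins overlap an annotated snoRNA or scaRNA gene: miR-1248, miR-1291, miR-3651, miR-6516-3p, miR-664a-3p, miR-664a-5p and miR-664b-3p. They were picked by gene position and name, but with earlier results of these data known, and they are 7 of the 594 miRNAs measured. Small RNAs were sequenced from H1 cells, an established human embryonic stem cell line, in 4 genotypes with 2 libraries each. The genotypes were Dicer-S1344L homozygous cells, Dicer-S1344L hemizygous cells, Dicer-null cells and wild-type cells, and the S1344L cells were engineered with CRISPR-Cas9. S1344L replaces a serine of Dicer with leucine and is a hotspot mutation of cancers. The labels call the RNA samples biologically independent and do not say whether a genotype rests on 1 clone or several. The question addressed was how miRNAs that lie on another class of structured RNA compare across cells with the hotspot mutation, without Dicer, and with normal Dicer.

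Box H/ACA snoRNAs fold into hairpins and guide the conversion of uridine to pseudouridine in ribosomal RNA. Box H/ACA scaRNAs do the same for spliceosomal RNAs in Cajal bodies. Most are cut out of the introns of host genes, with no need for Drosha or Dicer, and are held in particles with dyskerin. Some of these RNAs are also a source of short fragments that load into Argonaute, and several such fragments carry miRNA names. A canonical miRNA is instead made by Drosha and then by Dicer, which cuts a hairpin into its 5p and 3p arms.

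The mature sequences, from RefSeq on GRCh38.p14, show how little the 7 RNAs have in common beyond their location. All 7 matched an entry, and the seed, bases 2 to 8 counted from the 5′ end, is in capitals.
miR-1248: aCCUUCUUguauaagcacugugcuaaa
miR-1291: uGGCCCUGacugaagaccagcagu
miR-3651: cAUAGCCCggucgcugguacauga
miR-6516-3p: aUCAUGUAugauacugcaaaca
miR-664a-3p: uAUUCAUUuauccccagccuaca
miR-664b-3p: uUCAUUUGccucccagccuaca
miR-664a-5p: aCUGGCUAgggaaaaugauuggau
The 7 seeds are all distinct, so no 2 of these miRNAs group by seed. The closest pair was miR-664a-3p and miR-664b-3p, which lie on the paralogous snoRNAs SNORA36B and SNORA36A. Their last 11 bases are the same, and 14 of 22 positions are identical when the 3′ ends are aligned. A further run of 7 bases is shared near their 5′ ends. It starts at base 3 of miR-664a-3p and at base 1 of miR-664b-3p, so the annotated seeds cover it from different starts. The bases between this run and the shared 3′ end differ.

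The positions on the snoRNA, in GENCODE annotation of GRCh38, fall into 3 kinds. miR-1248 starts at base 1 of SNORA81, which is 178 bases long, and miR-1291 starts at base 2 of SNORA2C, which is 137 bases long. Both therefore sit at the 5′ end of their snoRNA. miR-3651 ends with the last base of SNORA84, and 3 others end 3 bases before the end of theirs. miR-664a-5p is internal, at bases 68 to 91 of the 131 bases of SNORA36B. The 3 miRNAs that end 3 bases short of the snoRNA all finish with the letters ACA, as the next lines show with the miRNA in capitals and the neighbouring snoRNA bases in lower case.
miR-6516-3p on SCARNA16: atgATCATGTATGATACTGCAAACAgga
miR-664a-3p on SNORA36B: ttcTATTCATTTATCCCCAGCCTACAaaa
miR-664b-3p on SNORA36A: ctaTTCATTTGCCTCCCAGCCTACAaaa
ACA followed by 3 bases is the ACA box that gives this snoRNA class its name. The letters ACA, read on the snoRNA strand alone and with exactly 3 bases after them, close 112 of 147 genes named SNORA, or 76.2%. The match is a description of the sequence.

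**Figure D1:**
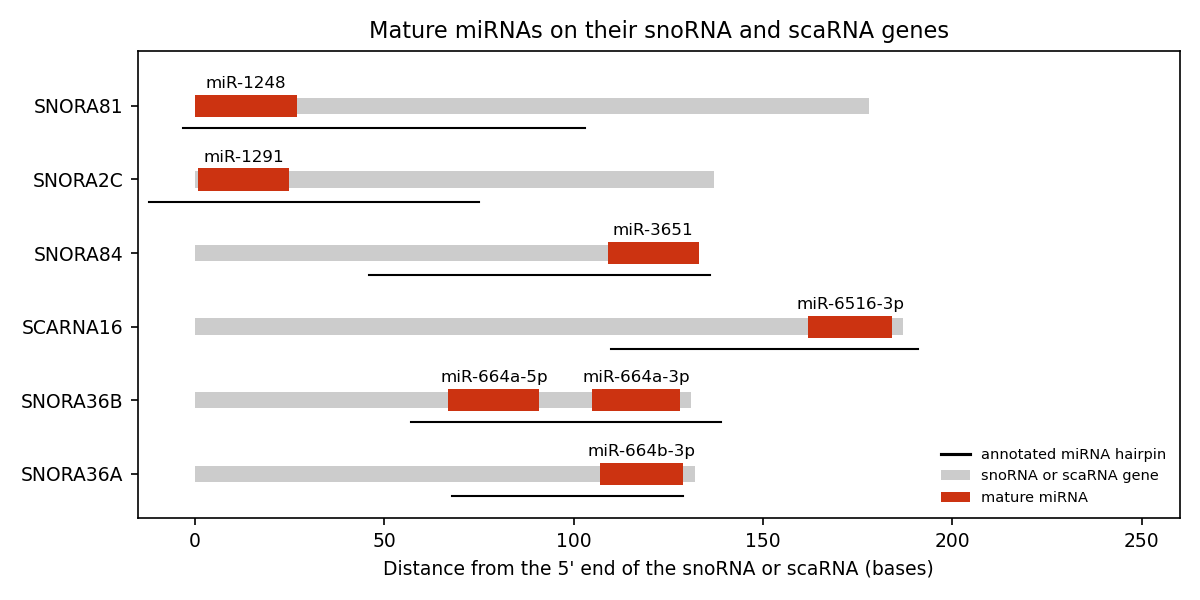
Each grey bar is a snoRNA or scaRNA gene drawn to scale from its 5′ end (x axis, distance in bases), with the mature miRNA in red and the annotated hairpin as a line below. miR-1248 and miR-1291 lie at the 5′ end, miR-664a-5p in the middle, and the other 4 at or 3 bases before the 3′ end.

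The hairpins lie in or beside host genes on the same strand (GRCh38.p14 coordinates). MIR1248 (chr3:186786672-186786777, plus strand) is in EIF4A2, which codes for a translation initiation helicase, and overlaps an exon of that gene in retained-intron transcripts only. MIR1291 (chr12:48654444-48654530, minus strand) is in an intron of KANSL2, a histone acetyltransferase complex subunit. MIR3651 (chr9:92292458-92292547, minus strand) is in an intron of IARS, the isoleucyl-tRNA synthetase gene. MIR664A (chr1:220200538-220200619, minus strand) is in an intron of RAB3GAP2, a subunit of a regulator of RAB GTPases. MIR664B (chrX:154768596-154768656, plus strand) is in DKC1, the gene of dyskerin itself, and meets an exon only of a processed, non-coding transcript. MIR6516 (chr17:77089417-77089497, plus strand) lies in an exon of SNHG20, a snoRNA host gene inside SEC14L1. Between 86.2% and 100% of each hairpin lies within its snoRNA, so a fragment of the snoRNA and a product of the annotated hairpin cannot be told apart by position.

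Values are RPM, reads scaled to a denominator that the authors set for each library and that is not its miRNA total. The miRNA reads came to 2289926 and 1814568 in the homozygous libraries, 1000101 and 1833057 in the hemizygous, 165317 and 137655 in the null, and 2680973 and 2725756 in the wild type. Per unit of denominator they were 2.43 and 2.18, 0.729 and 2.42, 0.118 and 0.183, and 2.09 and 2.33 in the same order, so hemizygous replicate 1 stood apart. A value of 1 read was worth 0.715 to 1.33 RPM. The stem cell markers of the miR-302, miR-367 and miR-371-373 family were all present (7 of 7 listed), at a summed 1149060 and 1056850 RPM in homozygous, 368574 and 1192390 in hemizygous, 61530 and 83044 in null and 821682 and 878639 RPM in wild-type cells. Fibroblast or feeder markers (4 of 5 present) summed to 1093 and 1841 RPM in null cells, against 19692 and 27708 RPM in wild-type cells. In bulk RNA, fewer cells making a miRNA and less of it per cell cannot be told apart.

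In wild-type cells the 7 miRNAs were of low to middling abundance. The order of the mean levels there was miR-1248 (199 ± 134 RPM, SD, n = 2), miR-664a-3p (125 ± 30.9), miR-1291 (62.3 ± 62.7), miR-664b-3p (50.8 ± 41.6), miR-3651 (10.4 ± 5.07), miR-6516-3p (10.3 ± 8.54) and miR-664a-5p (7.59 ± 4.68). Mature miRNAs yield 1 read each whatever their length, but ligation differs between sequences, so this is an order of reads. Neighbours in that order differed by less than the spread of their libraries, apart from miR-664b-3p and miR-3651, whose ranges of 21.4 to 80.2 and 6.84 to 14.0 RPM did not overlap. Among the 594 miRNAs, miR-1248 ranked 269 and 394 from the top in the wild-type libraries. In the null libraries it ranked 19 and 9.

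The order of the means in null cells was miR-1248 (2402 ± 2099.8 RPM, SD, n = 2), miR-1291 (535 ± 408), miR-664a-3p (217 ± 1.75), miR-664b-3p (164 ± 4.90), miR-3651 (44.6 ± 36.7), miR-664a-5p (14.6 ± 7.55) and miR-6516-3p (13.3 ± 3.71). The first 4 of these were apart from their neighbours, and miR-664a-5p overlapped with both miR-3651 and miR-6516-3p. In homozygous cells miR-1248 (267 ± 144) and miR-664a-3p (201 ± 40.1) led, with overlapping libraries. The other 5 lay between 1.66 ± 0.65 RPM for miR-664a-5p and 26.6 ± 3.18 RPM for miR-1291 there. In hemizygous cells only miR-664a-5p, at 1.39 ± 0.0959 RPM, was below all of the others in both libraries.

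**Figure D2:**
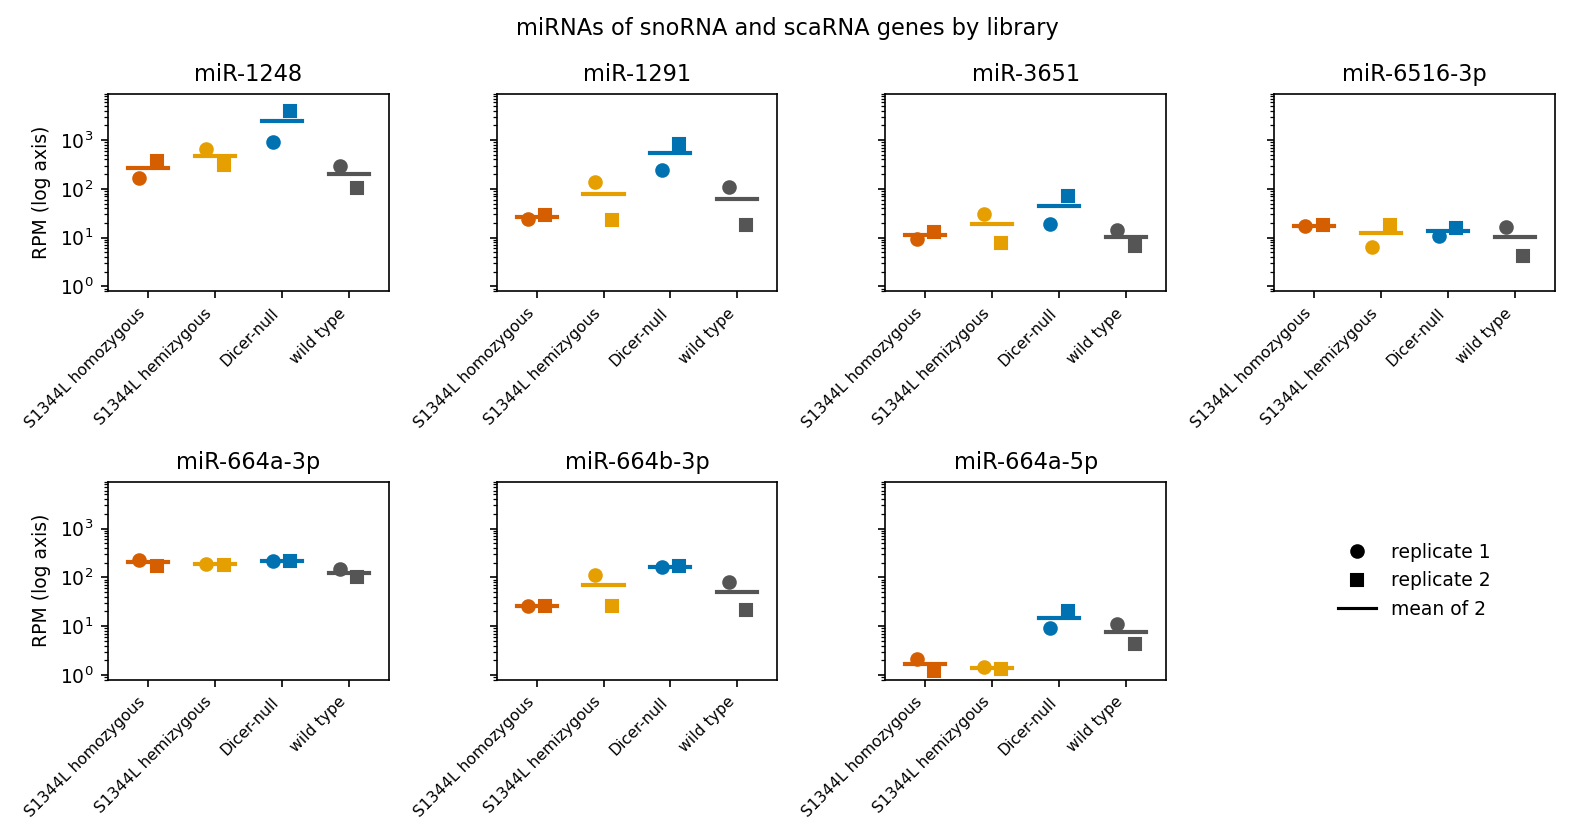
RPM of each miRNA (y axis, log scale) in the 2 libraries of each genotype, with a bar at their mean. miR-1248 and miR-1291 are highest in both null libraries, miR-664a-5p is lowest in the S1344L genotypes, and miR-664a-3p stays between 104 and 229.8 RPM in all 8 libraries.

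In Dicer-null cells the miRNAs at snoRNA 5′ ends were higher than in wild-type cells, although most other miRNAs fell there. miR-1248, which lies on SNORA81, had 917 and 3886 RPM in null cells, against 294 and 104 RPM in wild-type cells. miR-1291, on SNORA2C, had 247 and 824 RPM in null cells, against 107 and 18.0 RPM in wild-type cells. For each, both null libraries lay above both wild-type libraries, by a wide margin in null replicate 2 and a smaller margin in null replicate 1. On the scale of log2(RPM + 1), the limma test gave a change of 3.43 ± 0.93 (SE) for miR-1248, with a Benjamini-Hochberg adjusted p of 0.000344, and of 3.32 ± 1.01 for miR-1291, with an adjusted p of 0.00132. These were the highest and the next highest log2 fold changes of all 594 miRNAs tested. Thus 2 of the 7 rose, where 1.35% of all miRNAs rose and 87.4% fell. Those that rose, 8 of all miRNAs, were 0 without null replicate 2 or wild-type replicate 2.

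None of the 4 miRNAs at or near snoRNA 3′ ends passed the main limma test of null against wild-type cells. For 2 of them this depended on the settings, and their difference from the 5′-end miRNAs was not tested. miR-664b-3p, on the snoRNA of the dyskerin gene, had 161 and 168 RPM in null cells, against 80.2 and 21.4 RPM in wild-type cells, a log2 change of 1.95 ± 1.02 with a limma adjusted p of 0.0608. miR-3651, which closes SNORA84, had 18.6 and 70.5 RPM in null cells, against 14.0 and 6.84 RPM in wild-type cells (1.79 ± 0.99, limma adjusted p = 0.0801). The groups of both miRNAs were apart, with a narrow gap for miR-3651, but neither change passed the threshold in the main fit. With a constant of 5 RPM both passed (limma adjusted p = 0.0437 for miR-664b-3p and 0.044 for miR-3651). In a fit of only these groups miR-664b-3p passed as well (limma adjusted p = 0.0473). miR-664a-3p had 216 and 218 RPM in null cells, against 147 and 104 RPM in wild-type cells (0.81 ± 0.97, limma adjusted p = 0.42). Its groups also lay apart, by less than the fitted error. miR-6516-3p, on the scaRNA, had 10.7 and 16.0 RPM in null cells and 16.4 and 4.28 RPM in wild-type cells. These groups overlapped (0.56 ± 0.98, limma adjusted p = 0.578). The internal miR-664a-5p did not pass either (0.89 ± 0.91, limma adjusted p = 0.345), and its groups overlapped.

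All 7 changes in null cells were positive, and 5 of the 7 had both null libraries above both wild-type libraries, as did 2.53% of all miRNAs. The median log2 change of the 7 was 1.79, while the median of all 594 was -4.60. The 7 lay 5.16 to 8.03 above that median, at ranks 1, 2, 10, 12, 24, 26 and 30 from the highest change. The size of the change depends on what a library is scaled to. Scaled to each library's own miRNA reads, which moves the median of all miRNAs to -1.16, all 7 passed the limma test as higher in null cells, where 11.8% of all miRNAs did, with log2 changes from 4.17 to 7.32. Without null replicate 2 the changes of miR-1248 and miR-1291 were 2.39 and 2.45, and without wild-type replicate 2 they were 2.68 and 2.07, and neither passed (limma adjusted p from 0.056 to 0.166). Without the first wild-type and first hemizygous libraries, which stand apart as described further on, 6 of the 7 passed as higher in null cells, against 3.37% of all miRNAs, and miR-664a-3p did not.

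**Figure D3:**
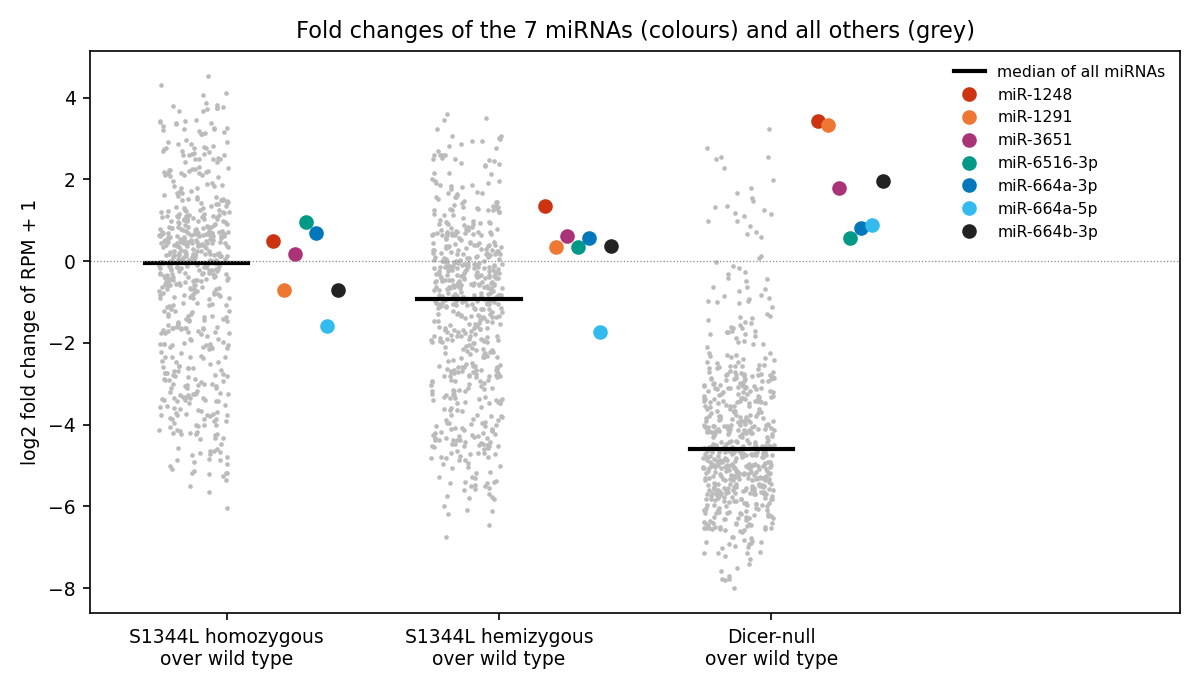
Log2 fold change of RPM + 1 (y axis) for the 7 miRNAs in colour and all others in grey, for homozygous, hemizygous and null cells over wild type, with a bar at the median of all 594. In null cells the median is -4.60 and the 7 lie between 0.56 and 3.43.

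In S1344L cells none of the 7 passed the test against wild type. In homozygous cells 0 of 7 were called by limma, and 0 at an unadjusted p under 0.05, where 32.0% of all miRNAs were called. That background of 190 miRNAs was 39 to 68 without any 1 homozygous or wild-type library, and 370 in a fit of only these groups. Their log2 changes ran from -1.60 to 0.95, with a median of 0.17 beside -0.05 for all miRNAs. In hemizygous cells 0 of 7 were again called, and 0 at an unadjusted p under 0.05, where 34.5% of all miRNAs were called. This background of 205 was 366 without hemizygous replicate 2, 123 and 109 without wild-type replicate 1 and 2, and 110 in a fit of only these groups. These changes ran from -1.73 to 1.35, with a median of 0.37 beside -0.92 for all miRNAs. A change that did not pass is not shown to be absent, since the standard errors lay between 0.91 and 1.02 on the log2 scale.

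The individual values show where the S1344L libraries sat. miR-1248 had 165 and 369 RPM in homozygous, 651 and 305 in hemizygous, and 294 and 104 RPM in wild-type cells. Both hemizygous libraries exceeded both wild-type libraries, and the homozygous libraries overlapped with them. miR-1291 had 24.4 and 28.9 RPM in homozygous, 137 and 22.5 in hemizygous, and 107 and 18.0 RPM in wild-type cells. It was high in hemizygous replicate 1 and wild-type replicate 1 and low in the other 4 of these libraries. miR-664b-3p followed the same pattern, with 25.4 and 25.2 RPM in homozygous, 110.0 and 26.4 in hemizygous, and 80.2 and 21.4 RPM in wild-type cells. miR-3651 had 9.53 and 13.2 RPM in homozygous, 29.9 and 7.93 in hemizygous, and 14.0 and 6.84 RPM in wild-type cells. The groups of the last 3 miRNAs overlapped with wild type in both S1344L genotypes. Both hemizygous libraries of miR-664b-3p lay above both homozygous libraries, by a narrow gap in hemizygous replicate 2.

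miR-664a-3p was the most even of the 7. It had 229.8 and 173 RPM in homozygous, 189 and 177 in hemizygous, and 147 and 104 RPM in wild-type cells, so both S1344L genotypes lay above wild type without overlap. The log2 changes were 0.69 ± 0.97 in homozygous cells (limma adjusted p = 0.681) and 0.57 ± 0.97 in hemizygous cells (limma adjusted p = 0.724). miR-6516-3p had 16.9 and 18.0 RPM in homozygous, 6.56 and 18.5 in hemizygous, and 16.4 and 4.28 RPM in wild-type cells. The homozygous libraries were just above the wild type and the hemizygous libraries overlapped with it. Higher levels without overlap, found for 2 of the 7 in homozygous cells, were found for 38.0% of all miRNAs there, and in hemizygous cells for 2 of the 7 and 9.09% of all miRNAs. Without the first wild-type and first hemizygous libraries, 1 of the 7, miR-6516-3p, passed in homozygous cells (1.81 ± 0.54, limma adjusted p = 0.0393), where 10.3% of all miRNAs were called higher. It rests on 16 and 15 reads in homozygous cells and on 5 reads in the remaining wild-type library.

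miR-664a-5p, which lies inside SNORA36B, was the lowest of the 7 in S1344L cells. It had 2 and 1 reads in the homozygous libraries, 2 and 1 in the hemizygous, 13 and 15 in the null, and 14 and 5 in the wild type. In RPM these are 2.12 and 1.20, 1.46 and 1.32, 9.29 and 20.0, and 10.9 and 4.28. Every S1344L library was below every null and wild-type library. The ratio of pooled reads per denominator was 0.218 for homozygous over wild-type cells (exact 95% interval 0.0413 to 0.741, counting error only) and 0.182 for hemizygous over wild-type cells (0.0345 to 0.618). The log2 changes of -1.60 ± 0.91 and -1.73 ± 0.91 did not pass (limma adjusted p = 0.192 and 0.134). Lower levels without overlap were common, at 43.3% of all miRNAs in homozygous and 44.1% in hemizygous cells. Without either hemizygous library, which narrows the fitted error, the homozygous change passed, with limma adjusted p values of 0.0438 and 0.0466.

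Set against null cells, both S1344L genotypes were lower in the 5′-end miRNAs miR-1248 and miR-1291 and in miR-664a-5p. These comparisons share the null libraries with the one above, so they are not separate evidence. In homozygous cells 4 of 7 were lower than in null cells, where 2.02% of all miRNAs were lower and 76.3% higher. The log2 changes were -4.04 ± 1.01 for miR-1291 (limma adjusted p = 0.000119), -2.93 ± 0.93 for miR-1248 (0.0026), -2.65 ± 1.02 for miR-664b-3p (0.0124) and -2.49 ± 0.91 for miR-664a-5p (0.00928). miR-1291 had the lowest change of all 594. In hemizygous cells 3 of 7 were lower than in null cells, where 0.842% of all miRNAs were lower. The miRNAs lower than in null cells, 12 and 5 of all, were 2 and 0 without null replicate 2. Of the 7, the 3 were miR-1291 (-2.99 ± 1.01, limma adjusted p = 0.00571), miR-664a-5p (-2.62 ± 0.91, 0.00761) and miR-1248 (-2.08 ± 0.93, 0.0401). Without null replicate 2 only miR-1291 passed in homozygous cells and none of the 7 in hemizygous cells, and without hemizygous replicate 2 only miR-664a-5p passed there. Without homozygous replicate 1 the homozygous count was 1, and without homozygous replicate 2 it was 2.

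No difference between hemizygous and homozygous cells passed the test. Of the 7, 0 were called by limma, and 0 at an unadjusted p under 0.05, and of all miRNAs 0.0% were called. That background rests on hemizygous replicate 2, since without it 416 of the 594 were called, 4 higher and 412 lower, and 1 of the 7, miR-664b-3p, was called higher (2.08 ± 0.78, limma adjusted p = 0.0392). The log2 changes of hemizygous over homozygous cells ran from -0.61 to 1.07. The highest was that of miR-664b-3p, which rested on hemizygous replicate 1, since the hemizygous libraries had 110.0 and 26.4 RPM and the homozygous libraries 25.4 and 25.2 RPM.

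As a share of miRNA reads, which does not use the authors' denominator, the 7 miRNAs were far more prominent in null libraries than in any other. Together they took 0.0195% and 0.0288% of miRNA reads in homozygous, 0.154% and 0.0231% in hemizygous, 1.34% and 2.84% in null, and 0.0320% and 0.0112% in wild-type libraries. The 95% Wilson intervals, which cover counting error only, were 1.28% to 1.39% and 2.75% to 2.93% in the null libraries, and 0.0300% to 0.0343% and 0.0100% to 0.0126% in the wild type. The mean was 2.09% ± 1.06 (SD, n = 2) in null cells and 0.0216% ± 0.0147 in wild-type cells, a ratio of 96.5. Without miR-1248 the means were 0.639% in null and 0.0124% in wild-type cells, a ratio of 51.6. An exact permutation test, two-sided, returned p = 0.333, the smallest that 2 against 2 libraries allow. For homozygous cells, at 0.0242% ± 0.00658, against wild type the exact permutation p was 1, and for hemizygous cells, at 0.0888% ± 0.0929, it was 0.667. A share rises both when these reads rise and when the rest of the miRNA reads fall, and the rest fell in null cells. miR-1248 alone held 58.1% and 74.7% of the 7 miRNAs' reads in null libraries, against 43.9% and 39.5% in the wild type.

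**Figure D4:**
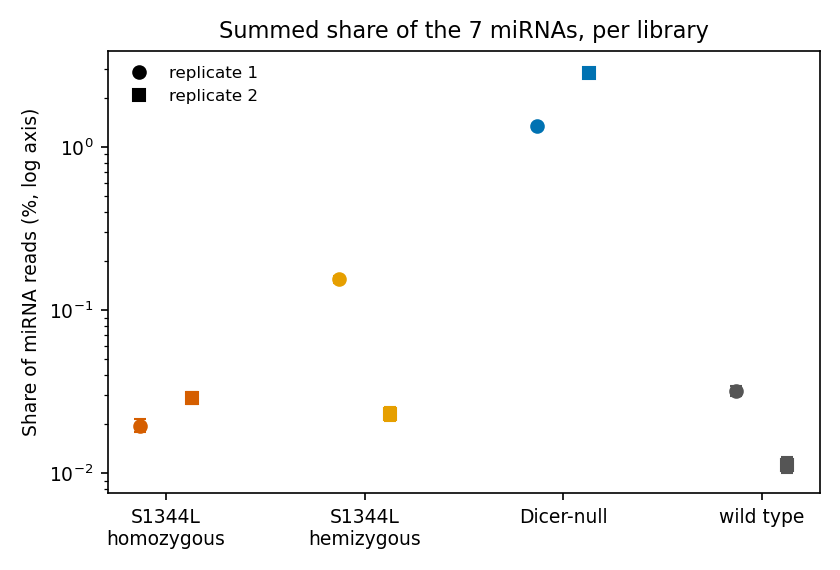
Summed share of the 7 miRNAs in the miRNA reads of each library (y axis, percent, log scale), with 95% Wilson intervals as bars, most of which are smaller than the points. The null libraries, at 1.34% and 2.84%, stand above the other 6, which lie between 0.0112% and 0.154%.

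Among these hairpins both arms were measured only for miR-664a, and its balance moved toward the 3p arm in S1344L cells. The 5p arm held 3 of 364 miR-664a reads in homozygous cells, or 0.824% (95% Wilson interval 0.281% to 2.39%), and 3 of 397 in hemizygous cells, or 0.756% (0.257% to 2.20%). It held 28 of 494 reads in null cells, or 5.67% (3.95% to 8.07%), and 19 of 329 in wild-type cells, or 5.78% (3.73% to 8.84%). These intervals pool the reads of a genotype's libraries and cover counting error only. Single libraries had 4.13% and 8.38% in null cells and 6.90% and 3.97% in wild-type cells. As log2, with 1 RPM added to each arm, the 3p over 5p ratio came to 6.21 and 6.30 in homozygous, 6.28 and 6.26 in hemizygous, 4.40 and 3.39 in null, and 3.64 and 4.31 in wild-type libraries. The 4 S1344L libraries lay close together and above the 4 others, and the null and wild-type libraries overlapped.

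Both arms were measured for 186 hairpins, over which the limma test of this log2 ratio gave miR-664a a change of 2.28 ± 0.52 in homozygous over wild-type cells (adjusted p = 0.00125), where 79.0% of hairpins moved toward 3p. In hemizygous over wild-type cells it was 2.30 ± 0.52 (limma adjusted p = 0.0013), where 76.9% moved toward 3p. The median change of all hairpins was 3.31 and 2.89, so miR-664a moved in the direction that most hairpins took and by somewhat less than their median, at ranks 123 and 117 of 186. In null over wild-type cells the change was -0.08 ± 0.52 (limma adjusted p = 0.903), where 20.4% of hairpins moved toward 3p and 17.2% toward 5p. Against null cells the changes were 2.37 in homozygous and 2.38 in hemizygous cells (limma adjusted p = 0.00104 in each), where 79.6% and 78.5% of hairpins moved toward 3p. The 4 changes of the S1344L genotypes passed under every alternative run, including without the first wild-type and first hemizygous libraries (1.95 in each genotype over wild type). Their size rests on 1 or 2 reads of the 5p arm per S1344L library, and so does the rank among hairpins. The size depends on the constant added: with 5 RPM it was 1.54 in homozygous and 1.48 in hemizygous over wild-type cells.

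**Figure D5:**
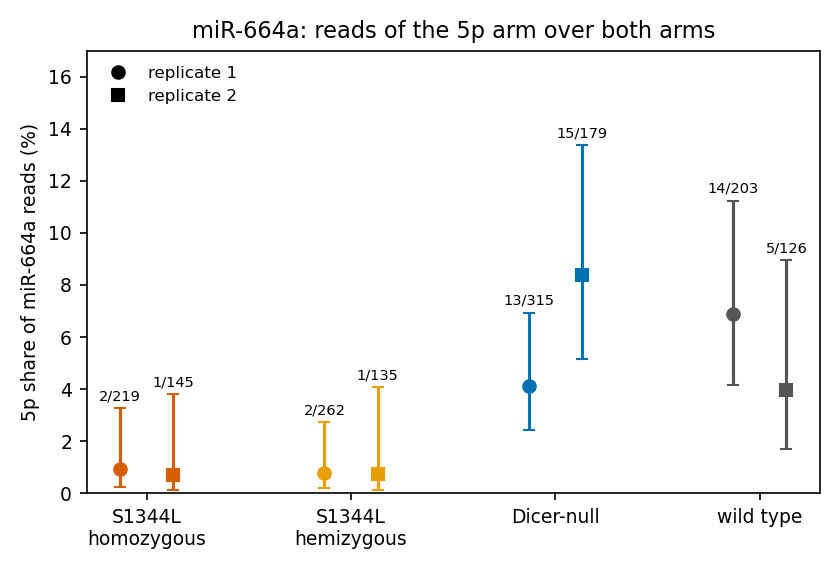
Share of the 5p arm in all miR-664a reads (y axis, percent) per library, with the reads printed above each point and 95% Wilson intervals as bars. The 4 S1344L libraries lie between 0.690% and 0.913%, and the null and wild-type libraries between 3.97% and 8.38%.

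The spread between replicates had a pattern of its own. In the wild type all 7 miRNAs were lower in replicate 2 than in replicate 1, by log2 differences of -0.50 to -2.51 with a median of -1.49, while the median of all miRNAs was 0.23. In hemizygous cells the median difference was -1.09 for the 7 and 1.94 for all miRNAs, and miR-6516-3p ran the other way, at 1.37. In homozygous cells the medians were 0.08 for the 7 and -0.23 for all, and in null cells 1.03 and 0.79. The first wild-type and first hemizygous libraries thus held more of these miRNAs than their partners, on a scale where all miRNAs did not. What sets these libraries apart was not tested, and the labels name no batch.

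The paralogs miR-664a-3p and miR-664b-3p did not keep a fixed ratio. The reads of miR-664a-3p over those of miR-664b-3p came to 9.04 and 6.86 in homozygous, 1.72 and 6.70 in hemizygous, 1.34 and 1.30 in null, and 1.83 and 4.84 in wild-type libraries. The ratio was lowest in the null libraries and nearly as low in the 2 libraries just named as standing apart. The 2 snoRNAs lie in different host genes, RAB3GAP2 and DKC1.

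By profile over the 8 libraries, the nearest of the 587 other miRNAs were picked by the root-mean-square difference of centred log2(RPM + 1). For miR-1248 they were miR-10395-5p at 0.433 and miR-4485-3p at 0.457, and for miR-1291 miR-10395-3p at 0.502 and miR-4485-3p at 0.577. miR-10395-5p had 812 and 2641 RPM in null cells, against 405 and 152 RPM in wild-type cells, and was called higher (2.55 ± 0.93, limma adjusted p = 0.00705). miR-4485-3p (3.23 ± 1.02, limma adjusted p = 0.00193) and miR-10395-3p (2.77 ± 0.97, 0.00543) were called higher as well. So was miR-3609 (2.55 ± 1.02, limma adjusted p = 0.014), while the other neighbours named here were not. Neighbours were picked by profile, so these calls are not separate evidence. For miR-3651 the nearest were miR-4449 at 0.208 and miR-10392-5p at 0.256, the closest matches of any of the 7. For miR-664b-3p they were miR-3662 at 0.348 and miR-1272 at 0.460. miR-664a-3p and miR-6516-3p had the same nearest neighbour outside the 7, miR-6724-5p, at 0.437 and 0.673, followed by miR-1275 at 0.643 and miR-6775-3p at 0.695. miR-664a-5p had the least similar neighbours, miR-3609 at 0.857 and miR-10392-5p at 0.918.

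No measured miRNA of 4 other lists of unusual origin passed as higher in null cells. Among all 594 miRNAs, 1.35% passed as higher there and 87.4% as lower. Of 8 further entries known to overlap snoRNAs, 0 were among the 594 used here. Of 10 tRNA-overlapping entries 1 was, miR-1260b, at 15.0 and 43.9 RPM in null and 25.7 and 108 RPM in wild-type cells (log2 change -1.01 ± 1.01, limma adjusted p = 0.335). Both mirtrons in the table, of 14 listed, fell in null cells. These bypass Drosha by splicing and still need Dicer, and miR-1227-3p was at 0 and 1.33 RPM in null cells, against 91.9 and 77.9 RPM in wild-type cells. Of the Drosha-independent miRNAs whose hairpins start at a transcription start site, 5 of 7 were in the table and 4 of these fell, with log2 changes of -6.53 for miR-484 and -6.13 for miR-320a-3p. miR-451a, which is matured by Argonaute 2 without Dicer, had 144 and 110 RPM in null cells, against 280 and 457 RPM in wild-type cells (-1.50 ± 0.94, limma adjusted p = 0.121). Its change was above the median of all miRNAs, at -4.60, and below that of each of the 7.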

How the data were processed

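Small RNA libraries were made from total RNA of H1 cells and sequenced in 8 libraries, 2 for each of 4 genotypes. Cutadapt, limma and the hg38 build are named by the authors, per the submitters' processing notes. The aligner, counting method, miRNA annotation and scaling were not given in the sources used here. Whether a read that fits a snoRNA and its miRNA was given to the miRNA in every library is therefore not known.

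The deposited values are log2 RPM, and 0.5 of a read had been added by the authors before the log. This follows from their steps, which in each library are those of whole reads plus 0.5 over a common denominator. Recovered reads lay within 5.97e-09 of whole numbers, over denominators of 751354 to 1399486. The analysis had been planned for unlogged RPM, so the 0.5 of a read was removed and RPM computed from the reads. No spike-in reads were used in computing RPM here. Whether the authors' denominators rest on spike-ins is not known.

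Log2(RPM + 1) was tested with limma 3.58.1 in R 4.3.3, as group means over all 8 libraries with a variance trend and Benjamini-Hochberg adjustment over 594 miRNAs, two-sided, at an adjusted p under 0.05. All passed the filter of 5 RPM in 2 libraries. Because the prior degrees of freedom came out infinite, the spread of a miRNA depends on its level only. Fold changes carry standard errors, and levels standard deviations. Log2 arm ratios of 186 hairpins were tested in the same way, and shares with an exact permutation test (scipy 1.17.1). Only the limma test of homozygous against wild-type cells was checked on simulated reads, and the arm-ratio and permutation tests were not. The simulated spread was set in advance and not fitted to these libraries, so the check does not show how reliable the calls are. Positions came from GENCODE 29 and mature sequences from RefSeq.

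The miRNAs named are the 7 members, the 2 nearest by profile to each, and up to 2 of each list (tRNA-overlapping, mirtrons, Drosha-independent, Dicer-independent). Members and lists were chosen with earlier results of these data known. P-values measure the spread between the labelled RNA samples. In the main limma fit of single miRNAs this spread is pooled over miRNAs of similar level. It is not the spread of that miRNA's own libraries, which can be wider. Alternatives tried were other constants, filters, scalings, variance options, limma-voom on the recovered reads, a replicate block and leaving out libraries; leaving out the first wild-type and first hemizygous libraries together was chosen after seeing the data.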

Additional observations from a re-analysis of the deposited data

How the results depend on the processing

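Of 790 alternative values of the 35 fold changes of the 7 miRNAs against wild-type or null cells, 665 kept direction and side of the threshold, 73 newly passed, 25 no longer passed and 27 turned sign; the causes were not tested. Leaving out 1 library leaves its group with 1, assumed to vary like the others. The number of the 7 called in null over wild-type cells, 2, was 4 with a constant of 5 RPM, 7 under each of the 4 other scalings, 6 without the first wild-type and first hemizygous libraries, and 0 to 4 with 1 library left out. In homozygous over null cells, 4 became 7 under each of the 4 scalings and 1 to 5 with 1 library left out. In hemizygous over null cells, 3 became 7 under the 4 scalings, 0 in a fit of only these groups, and 0 to 5 with 1 library left out. In homozygous over wild-type cells, 0 became 1 with quantile normalization (miR-664a-5p, lower), 1 without the 2 libraries, and 0 to 1 with 1 library left out. In hemizygous over wild-type cells, 0 became 1 with median-ratio, 3 with upper-quartile and 2 with quantile scaling, all higher, miR-664a-3p among them each time. In hemizygous over homozygous cells, 0 became 0 to 1 with 1 library left out. The labels do not say that same-numbered libraries share a batch, and the correlation of their deviations was 0.61 between hemizygous and wild-type libraries and -0.10 to 0.0975 between the 5 other pairs of groups. With the replicate block the calls were 3, 4 and 3 in null over wild-type, homozygous over null and hemizygous over null cells, and 0 elsewhere. The added call was miR-664b-3p (limma adjusted p = 0.0384). The scalings change the medians of all miRNAs in null over wild-type cells from -4.60 to -0.57 with median-ratio, -0.13 with upper-quartile and -0.34 with quantile scaling, and the split of all calls from 8 higher and 519 lower to 98 and 189, 139 and 121, and 99 and 167, beside 70 and 289 with own reads.

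The fold changes that turned sign were nearly all small and not called. In homozygous over null cells, miR-6516-3p, at 0.39, turned to -3.39 with own reads, -3.53 with median-ratio, -3.53 with upper-quartile and -3.46 with quantile scaling, each called lower by limma (adjusted p from 0.000826 to 0.00194), so its direction there depends on the scaling. With upper-quartile scaling, miR-1291 and miR-664b-3p in homozygous over wild-type cells were at 0.11 and 0.15, and with quantile normalization miR-3651 was at -0.45. Without the 2 libraries, miR-1291 and miR-664b-3p in homozygous over wild-type cells were at 0.54 and 0.23, and miR-6516-3p in hemizygous over null cells at 0.47.

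With 1 library left out, ranges crossed 0 for 11 fold changes and 2 arm ratios. In homozygous over wild-type cells, they were -0.25 to 1.25 for miR-1248, -1.97 to 0.54 for miR-1291, -0.29 to 0.64 for miR-3651 and -1.62 to 0.23 for miR-664b-3p. In hemizygous over wild-type cells, they were -0.95 to 1.61 for miR-1291, -0.28 to 1.51 for miR-3651, -0.52 to 1.20 for miR-6516-3p and -0.64 to 1.38 for miR-664b-3p. For miR-6516-3p they were -0.30 to 1.42 in null over wild-type and -0.90 to 0.47 in hemizygous over null cells, and for miR-664a-3p -0.32 to 0.0824 in homozygous over null cells. The arm ratio of miR-664a ran from -0.59 to 0.42 in null over wild-type and from -0.0361 to 0.0589 in hemizygous over homozygous cells.

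The share of the 7 in miRNA reads was 0.0123% in homozygous and 0.639% in null cells without miR-1248, and 0.0438% and 3.90% with the 5 most abundant wild-type miRNAs left out of the total. The arm ratio of miR-664a in null over wild-type cells, -0.08, was 0.15 with a constant of 5 RPM, and that of hemizygous over homozygous cells, 0.01, was -0.0636. Depth limits miR-664a-5p, miR-3651 and miR-6516-3p, which had 1 to 53 reads per library.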
